A study of Mus musculus with 12 samples.

Results

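The transcript of Trp53, the mouse gene for the tumour suppressor p53, and those of 9 of its known target genes (Mdm2, Ccng1, Cdkn1a, Bax, Bbc3, Pmaip1, Phlda3, Sesn1 and Zmat3) were followed across bulk RNA-Seq of NE-4C cells, which were made from mouse embryonic brain and immortalized by the deletion of p53. The genes were chosen by symbol. All 10 were found among the 57010 genes of the table, and all 10 passed the filter on low counts that left 16502 genes to test. There were 12 libraries in 4 groups of 3, from 3 independent passages: WT cells and Faf2 KO cells, either not induced (WT NO and KO NO, day 0) or given all-trans retinoic acid (RA) at 1 µM for 24 h and collected on day 3 (WT RA and KO RA). No untreated group was collected on day 3, so RA and the time in culture cannot be told apart. An effect of RA, or a response to it, means both together below. The p53-deficient background is shared by all 4 groups, so WT here refers to Faf2 alone. The KO cells are 1 line, in which CRISPR/Cas9 removed exon 4 of Faf2, whose protein helps to take misfolded proteins out of the endoplasmic reticulum. An effect of the deletion therefore cannot be told apart from other differences between the KO and WT lines, and a difference between the genotypes means both together below.

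p53 is a transcription factor that is kept scarce by the ubiquitin ligase MDM2 and accumulates after DNA damage or other stress. It then binds response elements made of a pair of similar half-sites in or near its target genes. Its targets stop the cell cycle (Cdkn1a), start apoptosis (Bax, Bbc3, Pmaip1) and feed back on p53 itself (Mdm2), and in neural progenitors this pathway is known to restrain self-renewal and to remove damaged cells. Most of these targets also answer to other transcription factors, so a transcript can be present without p53.

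The libraries held 17370000 to 30738700 estimated counts. Levels are given as CPM, the counts after TMM scaling to 1 common library size, and because the deposited counts were scaled from TPM, a CPM here is per unit of transcript length and levels of different genes can be set side by side. One library, KO RA replicate 3, stood apart: its TMM factor was 0.394, against 0.872 to 1.28 in the other 11, and mitochondrial genes took 23.5% of its counts. Results are therefore given with all libraries and without it. Faf2 itself lay at 36.0 to 50.0 CPM in WT NO, 35.1 to 49.0 in WT RA and 21.0 to 25.4 in KO NO, but at 36.1, 34.3 and 18.7 in KO RA, so the transcript level set KO NO apart from both WT groups and did not set KO RA apart. Markers of neural progenitors (Nes, Sox2, Pax6, Otx2, Cdh2, Sox1 and Vim) were present in every library. Their summed level separated the groups, at 379 to 427 CPM in KO NO, 474 to 502 in WT NO, 537 to 731 in WT RA and 772 to 886 in KO RA. Much of the rise in KO RA was Vim, with a mean of 542 CPM there and 130 in KO NO. Of the 7, Pax6 was called lower in KO than in WT cells, 5.67-fold when untreated and 4.62-fold after RA, where 1.14% and 1.24% of all genes were called. Another 4 (Sox1, Vim, Cdh2 and Nes) were called higher in KO RA than in KO NO (5.48% of all genes in either direction). The part of these differences in the results that follow was not tested. In bulk RNA, fewer cells with a transcript and less transcript per cell cannot be told apart.

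Where the genome carries a p53 response element near these genes is shown first, since the targets are defined by such elements. A pair of p53 half-sites with no spacer was searched on GRCm39 up to 3000 bp before and after the canonical start (GENCODE) of every gene, allowing up to 2 mismatches but none at the C that opens or the G that closes the 4-base core of each half-site. Of the 10 genes, 5 (Cdkn1a, Bax, Pmaip1, Ccng1 and Zmat3) held at least 1 match, against 5.86% of 21770 protein-coding genes. Since the genes are textbook targets, this describes the choice of genes and is not a test of it. The matches of 4 genes are printed below with the 4-base cores in capitals. Matches are called elements from here on, and whether p53 binds them was not tested.

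Cdkn1a: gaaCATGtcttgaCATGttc
Bax: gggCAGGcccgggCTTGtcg
Ccng1 upstream: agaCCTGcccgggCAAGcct
Ccng1 intron 1: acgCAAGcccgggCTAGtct
Zmat3: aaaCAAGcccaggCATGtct

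The Cdkn1a element lay at chr17:29309902-29309921 on the plus strand, at -2827 bp from the canonical start (negative values are upstream), and had 1 mismatch. The Bax element, at chr7:45115998-45116017 on the minus strand, was in intron 1 at 317 bp, with 2 mismatches. Ccng1 had 2 elements with 1 mismatch each, at chr11:40646289-40646308 (-161 bp) and at chr11:40645763-40645782 (365 bp, intron 1), both on the minus strand. The Zmat3 element, at chr3:32418480-32418499 on the minus strand, at 1418 bp in intron 1, matched without a mismatch. For Pmaip1 a match with 2 mismatches lay at -94 bp. No match of this form was found in the window of Trp53, Mdm2, Bbc3, Phlda3 or Sesn1.

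**Figure D1:**
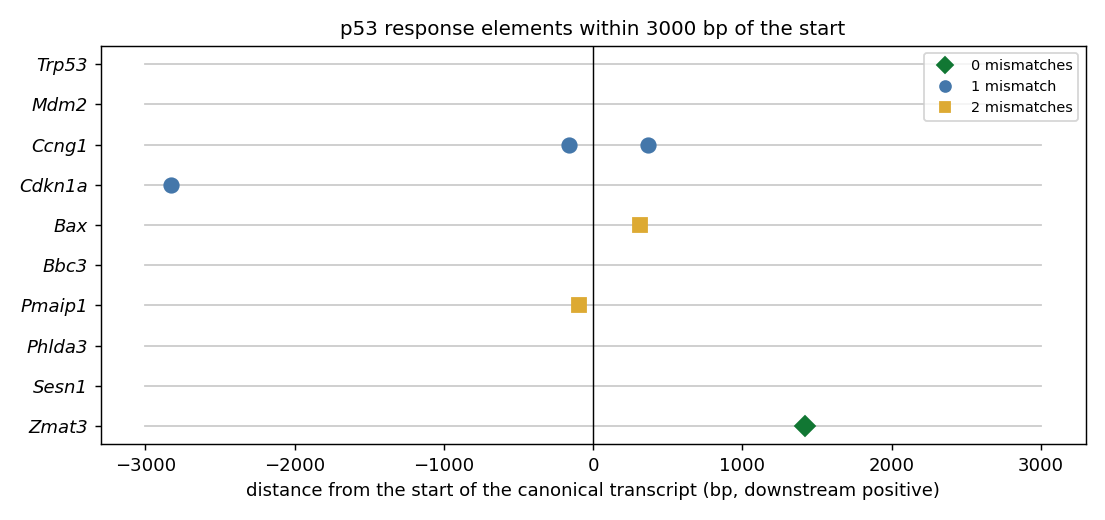
Position of sequence matches to the p53 response element (x axis, bp from the start of the canonical transcript, downstream positive) for each of the 10 genes (y axis), with the marker's shape and colour giving the number of mismatches. Elements of 5 genes fall between -2827 bp and 1418 bp, and only that of Zmat3 has 0 mismatches.

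The 10 transcripts spanned a wide range of levels. Averaged over the 12 libraries, Bax was highest (124 CPM), followed by Mdm2 (42.1), Pmaip1 (24.2), Ccng1 (13.3), Zmat3 (6.57), Bbc3 (6.43), Phlda3 (5.50), Sesn1 (4.92), Cdkn1a (4.30) and Trp53 (0.357). Of these neighbours in the order, Bax and Mdm2 did not overlap in any library, nor did Cdkn1a and Trp53. The other neighbours overlapped, and Phlda3 was above Sesn1 in only 4 of 12 libraries, so the order from Zmat3 to Cdkn1a is not resolved by these libraries. Bax stood above 93.7% of the genes tested, whereas Cdkn1a, the classical readout of active p53, stood above 39.6% and Trp53 above 6.37%.

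**Figure D2:**
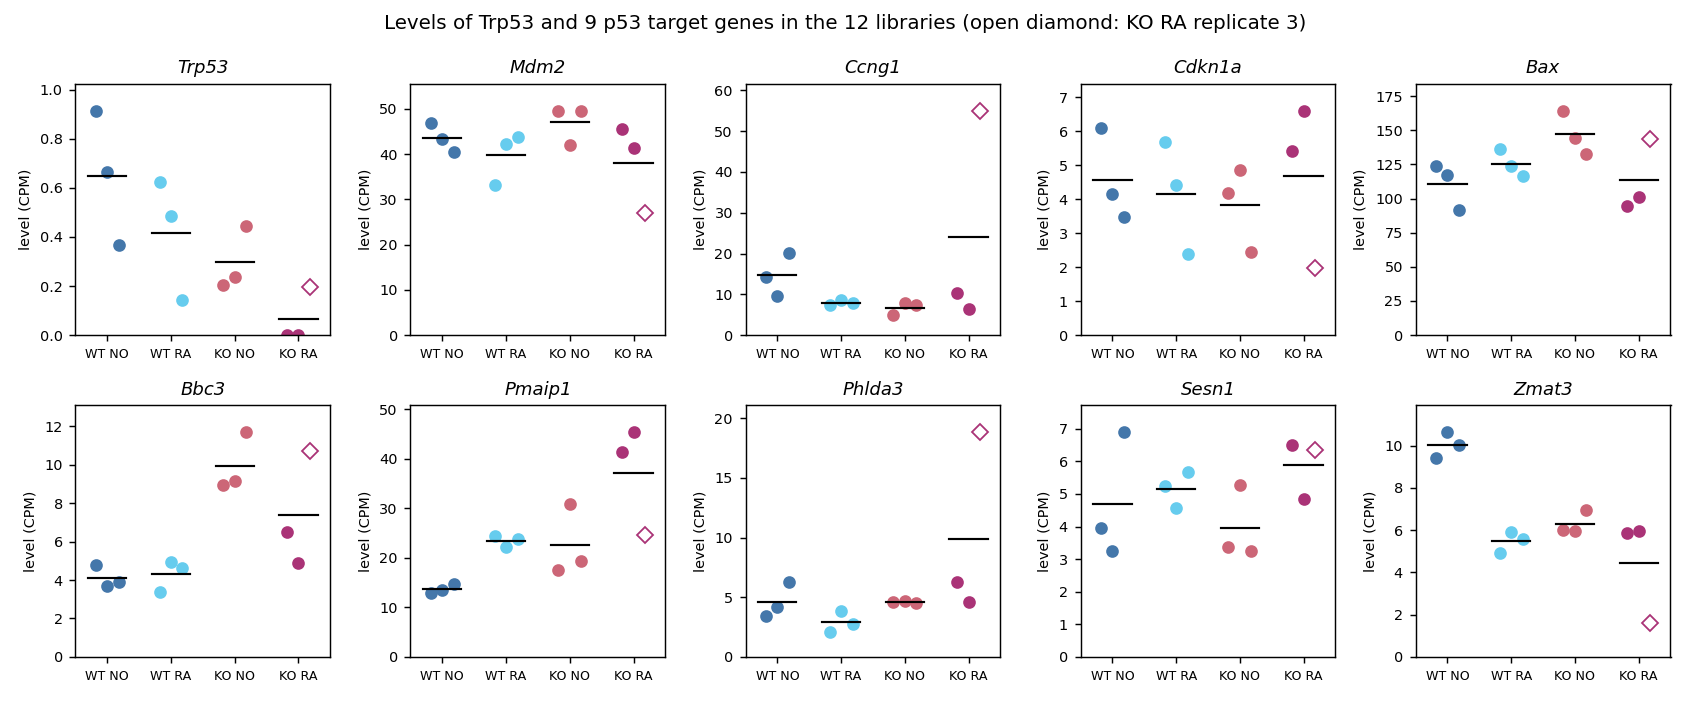
Level (y axis, CPM after TMM scaling, starting at 0) of the 10 genes in the 4 groups (x axis), with 1 point per library and a line at the group mean; the open diamond is KO RA replicate 3. Trp53 stays below 0.915 CPM throughout, Bbc3 is highest in KO NO, and the diamond lies far above its group in Ccng1 and Phlda3.

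Trp53 (ENSMUSG00000059552, chr11:69469669-69482701, plus strand) was close to absent in all groups of this p53-deficient line. The rounded counts were 26, 18 and 12 in WT NO, 13, 10 and 3 in WT RA, 7, 8 and 16 in KO NO, and 0, 0 and 2 in KO RA. The corresponding levels were 0.649 ± 0.275 CPM (SD, n = 3) for WT NO and 0.417 ± 0.248 for WT RA, and 0.296 ± 0.131 for KO NO and 0.0660 ± 0.114 for KO RA. All 3 KO RA libraries were thus at or under 3 counts, the floor used here, and WT RA replicate 3 was at it. The mean of KO NO was 1.66 times the mean floor of the KO RA libraries, and that of WT RA 2.34 times. With only KO RA replicates 1 and 2 these ratios were 2.49 and 3.52. They are ratios of means and do not bound single libraries. KO RA overlapped WT RA, with KO RA replicate 3 at 0.198 CPM and WT RA replicate 3 at 0.143. KO RA lay under KO NO, but the floor of KO RA replicate 3 (0.297 CPM) was above KO NO replicates 1 and 2 (0.205 and 0.237).

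By the quasi-likelihood test of edgeR, adjusted after Benjamini and Hochberg, neither decrease of Trp53 in KO RA passed with all libraries (adjusted p = 0.201 against KO NO and 0.230 against WT RA). Both passed without KO RA replicate 3 (adjusted p = 0.0204 and 0.0231). Between KO NO and WT NO the groups overlapped and the log2 fold change was -1.12 ± 0.96 (SE, adjusted p = 0.771). These counts are near the limit of detection, and 1483 bp of the 5' end of Trp53 is shared with Wrap53, a telomerase assembly gene on the opposite strand, whose mean level was 6.79 CPM in WT NO, 6.10 in KO NO, 4.02 in WT RA and 3.39 in KO RA. Whether Wrap53 reads entered the Trp53 counts was not tested. The processed pseudogene Trp53-ps was at 0 in every library.

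Mdm2, which marks p53 for degradation and is itself induced by it, varied little, as did Bax: the highest library was 1.84 times the lowest for Mdm2 and 1.80 times for Bax. Its level was 46.9, 43.4 and 40.5 CPM in WT NO, 33.3, 42.3 and 43.8 in WT RA, 49.5, 42.1 and 49.6 in KO NO, and 45.5, 41.5 and 27.0 in KO RA. The groups overlapped in every comparison, and the lowest value was that of KO RA replicate 3. The largest of its 4 log2 fold changes between groups was that of KO RA against KO NO, -0.31 ± 0.22 (SE, adjusted p = 0.408), or -0.13 ± 0.14 without that replicate.

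Ccng1 codes for cyclin G1, which recruits a phosphatase to MDM2. Its level was 14.2, 9.71 and 20.2 CPM in WT NO, 7.49, 8.58 and 7.78 in WT RA, 4.98, 7.75 and 7.48 in KO NO, and 10.4, 6.43 and 55.1 in KO RA. All 3 WT NO libraries were above all libraries of WT RA and of KO NO, and the highest value of all was KO RA replicate 3. Without TMM scaling that library was at 21.7 CPM, below WT NO replicate 3 at 24.3. With all libraries KO NO against WT NO was not called (log2 -1.12 ± 0.64 SE, adjusted p = 0.548), while without KO RA replicate 3 the same difference passed (-1.12 ± 0.28, adjusted p = 0.0366). The effect in WT RA against WT NO was smaller and did not pass in either fit (adjusted p = 0.648 and 0.0721). Between KO RA and KO NO the log2 fold change was 1.82 ± 0.65 with all libraries and 0.30 ± 0.32 without replicate 3, so that this difference rests on 1 library. Ccng1 overlaps Nudcd2 on the opposite strand, and whether the counting used strand is not given in the sources used here.

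Cdkn1a, which codes for the cyclin-dependent kinase inhibitor p21, did not separate any groups when all libraries were used. It was measured at 6.09, 4.14 and 3.48 CPM in WT NO, 5.67, 4.41 and 2.39 in WT RA, 4.19, 4.85 and 2.45 in KO NO, and 5.41, 6.60 and 1.98 in KO RA. Each group spread over more than the differences between group means, which ran from 3.83 ± 1.24 CPM (SD) in KO NO to 4.67 ± 2.40 in KO RA. Its log2 fold changes lay between -0.25 ± 0.47 (SE, KO NO against WT NO) and 0.30 ± 0.47 (KO RA against KO NO), with adjusted p from 0.715 to 0.957. Without KO RA replicate 3, KO RA lay above all KO NO libraries, at 0.64 ± 0.39 (adjusted p = 0.298).

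Among the genes that start apoptosis, Bbc3 had the smallest p between the genotypes in untreated cells. Bbc3 codes for PUMA, which binds and blocks the survival proteins of the BCL2 family. The level was 4.79, 3.69 and 3.87 CPM in WT NO and 8.96, 9.17 and 11.7 in KO NO, with no overlap. It was 3.36, 4.94 and 4.63 in WT RA and 6.49, 4.90 and 10.7 in KO RA, where replicate 2 fell among the WT RA values. In untreated cells the log2 fold change was 1.27 ± 0.31 (SE, KO NO against WT NO), or 2.41-fold, with an adjusted p of 0.0836 over all libraries and 0.00651 without KO RA replicate 3. After RA it was 0.76 ± 0.31 (adjusted p = 0.243), and 0.39 ± 0.24 without that replicate (adjusted p = 0.320).

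In KO cells the difference of Bbc3 by RA passed only when that replicate was left out. Replicates 1 and 2 of KO RA lay under every KO NO library, and the log2 fold change against KO NO was -0.82 ± 0.24 without replicate 3 (adjusted p = 0.0420) but -0.44 ± 0.30 with it (adjusted p = 0.377). In WT cells it was 0.07 ± 0.31. The test of the difference between these responses to RA did not pass in either fit (adjusted p = 0.734 and 0.171).

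Pmaip1 codes for NOXA, another activator of apoptosis, and was the 1 target whose values were higher both after RA and in KO cells. Its level was 12.8, 13.6 and 14.8 CPM in WT NO, 24.4, 22.1 and 23.8 in WT RA, 17.5, 30.9 and 19.3 in KO NO, and 41.3, 45.3 and 24.7 in KO RA. WT NO lay under all other groups without overlap, and KO RA lay above WT RA without overlap, although KO RA replicate 3 was below KO NO replicate 2. By genotype the log2 fold change was 0.71 ± 0.27 (SE) in untreated cells and 0.66 ± 0.27 after RA, and by RA it was 0.77 ± 0.27 in WT and 0.72 ± 0.27 in KO cells. None passed with all libraries (adjusted p = 0.142 to 0.303).

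Without KO RA replicate 3, all 4 differences of Pmaip1 passed, at 0.72 ± 0.19 (adjusted p = 0.0425), 0.88 ± 0.21 (0.0269), 0.77 ± 0.19 (0.0305) and 0.93 ± 0.21 (0.0137) in the same order. The effect of RA differed between KO and WT cells by -0.051 ± 0.38 with all libraries and 0.16 ± 0.28 without that replicate.

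Bax, which permeabilizes the outer mitochondrial membrane, was the most abundant of the 10. It lay at 124, 117 and 91.4 CPM in WT NO, 137, 124 and 116 in WT RA, 164, 145 and 132 in KO NO, and 94.9, 101 and 144 in KO RA. KO NO was above WT NO without overlap, by 0.41 ± 0.23 on the log2 scale (SE, adjusted p = 0.537, and 0.0770 without KO RA replicate 3). KO RA replicates 1 and 2 were below every KO NO and every WT RA library, whereas replicate 3 was among the KO NO values. Without TMM scaling replicate 3 was at 56.6 CPM, below replicates 1 and 2 at 121 and 124. The log2 fold change of KO RA against KO NO was -0.38 ± 0.23 with all libraries (adjusted p = 0.321) and -0.59 ± 0.15 without replicate 3, which passed (adjusted p = 0.0236). The responses to RA differed between KO and WT by -0.78 ± 0.20 without that replicate (adjusted p = 0.0809). Bax overlaps the predicted gene Gm45808 on the same strand, so reads may have been divided between them.

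Phlda3 codes for an inhibitor of AKT, a kinase that promotes survival. Its level was 3.41, 4.14 and 6.31 CPM in WT NO, 2.07, 3.83 and 2.77 in WT RA, 4.62, 4.68 and 4.52 in KO NO, and 6.27, 4.63 and 18.8 in KO RA. KO RA lay above WT RA without overlap, with KO RA replicate 3 far above the rest. The log2 fold change of KO RA against WT RA was 1.76 ± 0.49 (SE, adjusted p = 0.110) and, without replicate 3, 0.91 ± 0.32 (adjusted p = 0.101).

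Sesn1, which codes for sestrin 1, a stress protein that restrains the growth kinase mTORC1, overlapped between the groups of every comparison. Its level was 3.94, 3.25 and 6.89 CPM in WT NO, 5.24, 4.55 and 5.68 in WT RA, 3.37, 5.27 and 3.24 in KO NO, and 6.49, 4.83 and 6.34 in KO RA. The largest of its 4 log2 fold changes between groups was 0.57 ± 0.33 (SE, KO RA against KO NO, adjusted p = 0.291).

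Zmat3 codes for a zinc finger protein that binds RNA and regulates splicing. It was at 9.43, 10.6 and 10.0 CPM in WT NO, against 4.90, 5.91 and 5.58 in WT RA, 6.03, 5.95 and 6.95 in KO NO, and 5.86, 5.96 and 1.58 in KO RA. WT NO was above all other libraries without overlap, and the single low value was KO RA replicate 3. On the log2 scale KO NO differed from WT NO by -0.67 ± 0.38 (SE, adjusted p = 0.539) and -0.88 ± 0.38 in WT RA against WT NO (adjusted p = 0.371). Both passed without KO RA replicate 3, at -0.66 ± 0.15 (adjusted p = 0.0226) and -0.87 ± 0.15 (adjusted p = 0.00783), and between KO RA and KO NO it was then -0.10 ± 0.17. The effect of RA differed by genotype by 0.77 ± 0.22 without that replicate (adjusted p = 0.106).

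Counted over the 10 genes, edgeR's quasi-likelihood test called 0 in each comparison with all libraries. Over all genes tested it called 1.14% between KO NO and WT NO, 1.24% between KO RA and WT RA, 0.406% between WT RA and WT NO, 5.48% between KO RA and KO NO, and 0% for how the RA response differed by genotype. At an unadjusted p under 0.05 there were 2 of the 10 (Bbc3 and Pmaip1), 5 (Trp53, Bbc3, Pmaip1, Ccng1 and Phlda3), 2 (Pmaip1 and Zmat3), 3 (Pmaip1, Ccng1 and Phlda3) and 2 (Ccng1 and Phlda3), in the same order, where 12.2%, 17.6%, 12.5%, 25.2% and 8.62% of all genes tested were. DESeq2 on all libraries called 1 (Bbc3), 1 (Phlda3), 0 and 2 (Pmaip1 and Ccng1) of them in the first 4 comparisons and 0 in the last, where it called 5.49%, 6.86%, 4.53%, 14.1% and 1.53% of the genes it gave an adjusted p.

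Without KO RA replicate 3, 4 of the 10 were called in KO NO against WT NO (Bbc3 and Pmaip1 higher, Ccng1 and Zmat3 lower), where 8.77% of all genes were. In KO RA against WT RA 2 were called (Pmaip1 higher, Trp53 lower; 9.85% of all genes), in WT RA against WT NO 2 (Pmaip1 higher, Zmat3 lower; 10.8%), and in KO RA against KO NO 4 (Pmaip1 higher, Trp53, Bax and Bbc3 lower; 16.0%). For the difference between the RA responses 0 were called (1.34% of all genes), and 5 had an unadjusted p under 0.05 (18.9% of all genes). Mdm2, Cdkn1a, Phlda3 and Sesn1 were called in no comparison of either fit. In this fit the 4 calls in untreated KO cells thus did not go one way, and with all libraries 0 of the 10 were called. Bbc3 and Pmaip1 do not stand for apoptosis genes at large. In the same fit and comparison, 0 of 19 other tested genes of the BCL2 family and the caspases were called higher and 4 lower.

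Groups were also compared by whether their libraries overlapped. In KO NO against WT NO 5 of the 10 genes were apart (Bax, Bbc3 and Pmaip1 higher, Ccng1 and Zmat3 lower), where 30.7% of all genes were. In KO RA against WT RA 2 were apart (20.9% of all genes), in WT RA against WT NO 3 (29.1%) and in KO RA against KO NO 1 (30.2%). Leaving out KO RA replicate 3 gave 4 (47.9% of all genes) and 5 (55.7%) for the 2 comparisons with KO RA.

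**Figure D3:**
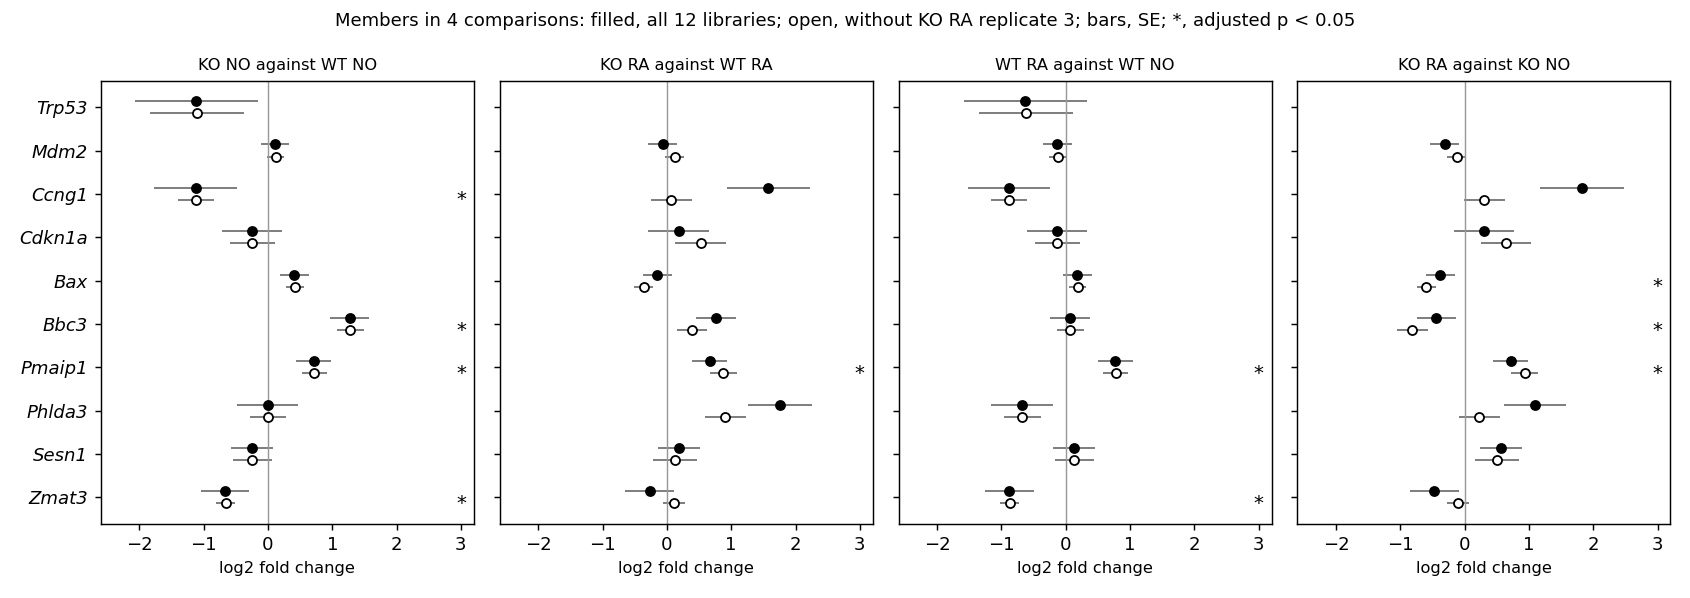
Log2 fold change (x axis) of the 10 genes (y axis) in 4 comparisons, with all 12 libraries (filled) and without KO RA replicate 3 (open); bars are SE and stars mark an adjusted p under 0.05. Trp53 is left out of the comparisons with KO RA, where it was at the floor. Every star belongs to an open point, and Pmaip1 has one in each of the 4 panels.

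How alike the 10 transcripts were was described by Pearson's r of log2 CPM across the 12 libraries, which share their groups and 1 library that stands apart. Over all pairs of the 10 the median r was -0.132, and -0.090 in the 11 libraries without KO RA replicate 3. The most alike pair, Ccng1 and Phlda3, had r = 0.767 in 12 libraries and 0.289 in 11, and the least alike, Trp53 and Pmaip1, had -0.839 and -0.838. Among all tested genes, those most like Trp53 over 12 libraries were Mrps30 (r = 0.925), Ccnh (0.919), Btn1a1 (0.902), ENSMUSG00000120758 (0.899) and Gm7008 (0.889). Over 11 libraries they were Pcbd2 (0.947), Vars (0.938), Ybx2 (0.938), Bag6 (0.935) and Btn1a1 (0.927), so that Btn1a1 was the 1 gene on both lists.

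For Cdkn1a the most similar genes were Gm10874 (r = 0.846), Cdc42ep4 (0.843), Dgat2 (0.839), Gm5921 (0.817) and Bcr (0.809) over 12 libraries. Over 11 libraries they were Garin5a (0.919), Trmt9b (0.854), Crct1 (0.837), Gm15952 (0.814) and Lingo1 (0.807), none of which was on the first list. None of these genes was among the other 9 targets, and at Trp53's few counts such correlations follow counting error as well as level.

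Among the regulators of p53, 1 gene was called between the genotypes with all libraries, where 1.14% of all genes were in untreated cells and 1.24% after RA. Cdkn2a codes for p16INK4a and p19ARF, the latter an inhibitor of MDM2, and lay at 50.4, 49.8 and 68.0 CPM in WT NO, 53.6, 59.2 and 52.5 in WT RA, 236, 213 and 198 in KO NO, and 151, 165 and 200 in KO RA. Every KO library was above every WT library, KO RA replicate 3 included. Cdkn2a was 3.85-fold higher in KO NO than in WT NO (log2 1.94 ± 0.22 SE, adjusted p = 0.00293) and 3.13-fold higher in KO RA than in WT RA (1.64 ± 0.22, adjusted p = 0.00753). Both p16INK4a and p19ARF transcripts are counted in this row.

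Of the 21 tested regulators of p53, no other passed between the genotypes with all libraries. Without KO RA replicate 3, 4 of 22 were called in untreated cells (Cdkn2a, Atr and Sirt1 higher, Daxx lower; 8.77% of all genes) and 4 after RA (Cdkn2a higher, Rpl5, Rpl11 and Npm1 lower; 9.85%). With all libraries none passed in WT RA against WT NO (0.406% of all genes), and 2 had an unadjusted p under 0.05 (12.5% of all genes). Between KO RA and KO NO 3 were called, all lower, where 5.48% of all genes were called in either direction. They were Prkdc, a kinase of double-strand break repair (log2 -1.50 ± 0.35, adjusted p = 0.0319), the checkpoint kinase Chek2 (-1.13 ± 0.27, adjusted p = 0.0364) and the damage kinase Atr (-0.84 ± 0.21, adjusted p = 0.0408). They remained called without KO RA replicate 3, at -1.27, -0.98 and -0.78. In WT RA against WT NO the smallest p belonged to Chek2 (-0.73, adjusted p = 0.280) and to Mdm4, the partner of MDM2 (0.84 ± 0.34, adjusted p = 0.333). Trp73, a relative of Trp53, averaged 8.18 CPM in WT NO, 5.97 in KO NO, 6.47 in WT RA and 2.83 in KO RA and passed in no comparison.

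Beyond the 9 targets, 51 further genes were listed as p53 targets, without a check that p53 regulates each directly, and 47 of them were tested. The test called 1 by genotype in untreated cells (1.14% of all genes), 1 by genotype after RA (1.24%), 0 by RA in WT cells (0.406%) and 7 by RA in KO cells (5.48%). At an unadjusted p under 0.05, 5 were higher and 2 lower by RA in WT cells (12.5% of all genes in either direction). The median log2 fold change of the 47 was 0.03, 0.15, -0.0048 and 0.14 in the order of the calls above, beside -0.02, 0.09, -0.01 and 0.11 for all genes tested. Of the 47, 24, 28, 23 and 26 were above 0. Without KO RA replicate 3, 5, 6, 8 and 10 of 49 were called, where 8.77%, 9.85%, 10.8% and 16.0% of all genes were.

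The call in KO NO was Crip2, a LIM-domain protein, which fell from 47.3, 38.8 and 31.3 CPM in WT NO to 18.7, 17.1 and 13.3 in KO NO, without overlap (log2 -1.25 ± 0.25, adjusted p = 0.0374). In KO RA against WT RA the call was Rprm, which codes for reprimo, a protein that arrests cells before mitosis. Rprm was measured at 7.49, 7.68 and 7.32 CPM in WT NO, 10.2, 10.6 and 10.9 in WT RA, 6.09, 5.36 and 5.52 in KO NO, and 19.4, 20.2 and 19.1 in KO RA. Every group was apart from every other.

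Rprm rose 3.45-fold in KO RA against KO NO (log2 1.79 ± 0.18, adjusted p = 0.000483) and was 1.85-fold higher in KO RA than in WT RA (0.89 ± 0.17, adjusted p = 0.0376). Its RA response differed by genotype by 1.30 ± 0.24 (adjusted p = 0.148), which passed without KO RA replicate 3 (1.30 ± 0.18, adjusted p = 0.0173). Trp53i11, a gene induced by p53 in apoptosis, passed this same test without that replicate (2.53 ± 0.34, adjusted p = 0.0140). It lay at 20.9, 13.4 and 11.8 CPM in WT NO, 22.1, 18.0 and 17.3 in WT RA, 4.13, 4.88 and 6.11 in KO NO, and 32.4, 40.9 and 5.05 in KO RA, so that KO RA replicate 3 stayed at the KO NO level. It was also called in KO RA against KO NO with all libraries (2.38 ± 0.57, adjusted p = 0.0379), although the groups overlapped.

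The other 5 calls in KO RA against KO NO were all higher: Kitl, the ligand of the KIT receptor (log2 3.77 ± 0.62), Plk2, a polo-like kinase (2.92 ± 0.50), Btg2, an antiproliferative factor (1.22 ± 0.30), Dram2 (2.35 ± 0.58) and Trp53inp2 (0.99 ± 0.23), the last 2 linked to autophagy, with adjusted p between 0.00760 and 0.0399. All of them were also called without KO RA replicate 3, when Kitl, Plk2 and Dram2 dropped to 2.95, 2.32 and 1.11. The DNA repair targets had no call in any comparison, and 0 of 7 had an unadjusted p under 0.05 in KO NO against WT NO (12.2% of all genes). The smallest p there belonged to Polh, a polymerase that copies past lesions (-0.32 ± 0.24), and to Xpc, a sensor of DNA lesions (0.36 ± 0.35).

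**Figure D4:**
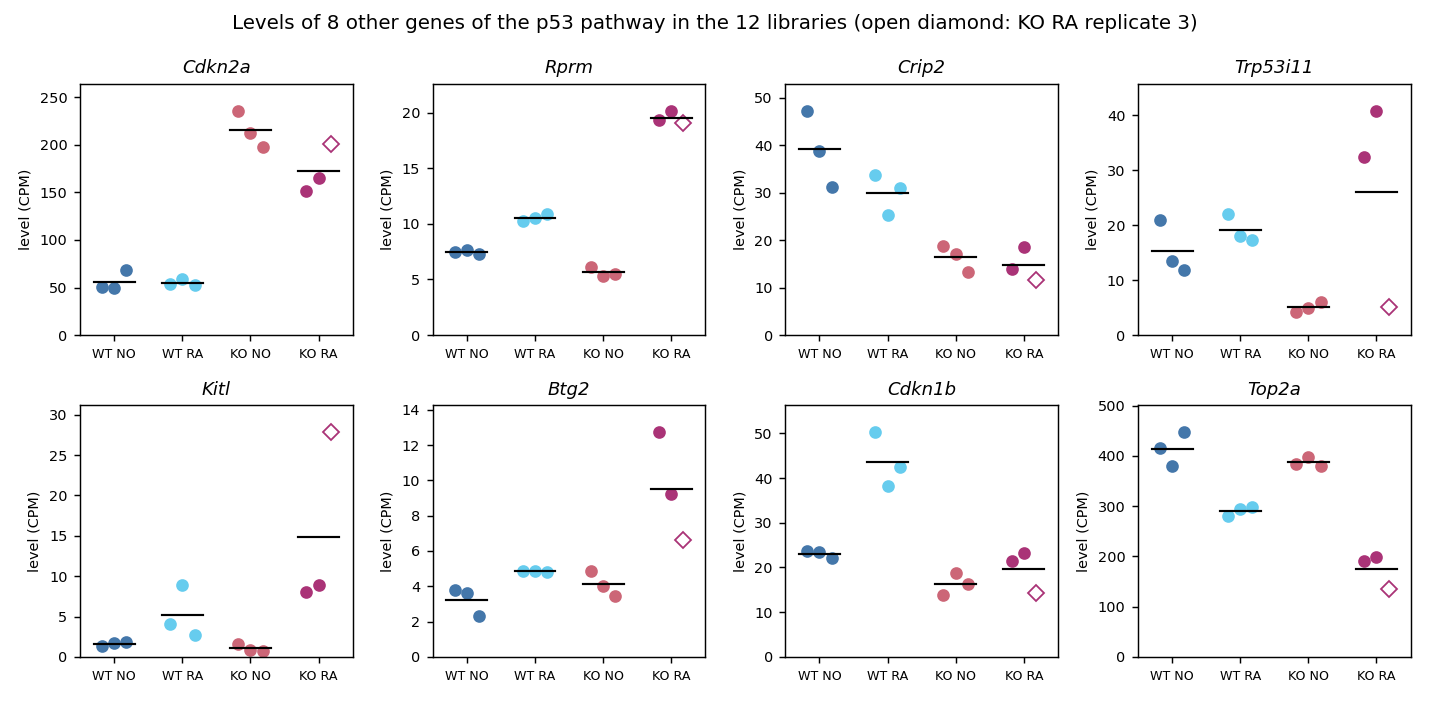
Level (y axis, CPM after TMM scaling, starting at 0) of 8 other genes of the pathway in the 4 groups (x axis), with 1 point per library and a line at the group mean; the open diamond is KO RA replicate 3. Cdkn2a is higher in all KO libraries than in all WT libraries, and Rprm is highest in KO RA, with the diamond beside the other 2 replicates.

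Of 16 genes of mitosis that the DREAM complex represses when p21 is active, 0 were called in KO NO against WT NO (1.14% of all genes). There, 1 had an unadjusted p under 0.05 (12.2% of all genes). In KO RA against KO NO 3 of the 16 were called, all lower (5.48% of all genes in either direction). They were Cdc20 (log2 -1.32 ± 0.22), Top2a (-1.14 ± 0.22) and Aurka (-1.12 ± 0.29), with adjusted p of 0.00802, 0.0150 and 0.0492. The median log2 fold change of the 16 was -0.52 in KO RA against KO NO and -0.45 in WT RA against WT NO with all libraries. Without KO RA replicate 3 these medians were -0.60 and -0.45, and 8 of 16 were called lower in each (16.0% and 10.8% of all genes called in either direction). By genotype 3 were then called lower in untreated cells (Ccnb1, Birc5 and Aurkb; 8.77% of all genes) and 3 after RA (Ccnb1, Birc5 and Top2a; 9.85%). Cdkn1a passed the test in neither comparison. At an unadjusted p under 0.05, 4 of the 16 were lower in WT RA than in WT NO with all libraries (12.5% of all genes in either direction), where 0 were called (0.406% of all genes).

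Among inhibitors of cyclin-dependent kinases and G1 cyclins, 1 of 18 passed between genotypes after RA with all libraries (1.24% of all genes), and 0 in untreated cells (1.14%). Cdkn1b, which codes for p27, lay at 23.6, 23.5 and 22.0 CPM in WT NO, 50.2, 38.2 and 42.5 in WT RA, 13.9, 18.9 and 16.3 in KO NO, and 21.6, 23.2 and 14.4 in KO RA. It was lower in KO RA than in WT RA without overlap (log2 -1.15 ± 0.23, adjusted p = 0.0376, and -0.97 without KO RA replicate 3). In untreated cells the smallest p belonged to Cdkn1c, which codes for p57, and to Ccnd3, which codes for cyclin D3. Cdkn1c was 9.81-fold higher in KO NO than in WT NO, without overlap and from a mean of 0.288 CPM (log2 3.29 ± 0.91, adjusted p = 0.132), and Ccnd3 was lower (-0.94 ± 0.27, adjusted p = 0.147). Both were called without KO RA replicate 3 (adjusted p = 0.0415 and 0.00619), when 2 of 18 passed in untreated cells (8.77% of all genes). After RA 4 of 18 then passed (Cdkn1c and Cdkn2b higher, Cdkn1b and Ccna2 lower), where 9.85% of all genes did.

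In KO RA against KO NO 2 of the list were called, where 5.48% of all genes were. Ccnd2, which codes for cyclin D2, rose (1.18 ± 0.30, adjusted p = 0.0465), and so did Cdkn2c, which codes for p18 (2.80 ± 0.73, adjusted p = 0.0495), the latter from a level of 0.136 CPM and not without KO RA replicate 3 (adjusted p = 0.0622). Ccnd1 and Ccne1, which code for cyclins D1 and E1, had values of -1.97 ± 0.38 and -1.48 ± 0.31 in WT RA against WT NO (adjusted p = 0.0567 and 0.0730), and both passed without KO RA replicate 3.

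In the BCL2 family and the caspases, which carry out what Bax, Bbc3 and Pmaip1 start, 0 of 19 tested genes were called between genotypes with all libraries. Over all genes, 1.14% were called in untreated cells and 1.24% after RA. At an unadjusted p under 0.05 there were 6 of the 19 in KO NO against WT NO (12.2% of all genes) and 3 in KO RA against WT RA (17.6%). The smallest p in KO NO against WT NO were those of Bak1, the partner of Bax, at 81.4, 75.3 and 52.3 CPM in WT NO and 40.2, 38.8 and 47.1 in KO NO (log2 -0.73 ± 0.21, adjusted p = 0.146), and of Bid (-0.75 ± 0.26, adjusted p = 0.242). Bak1, Bid, Bad and Bcl2l1 were called lower there without KO RA replicate 3 (8.77% of all genes). Casp6, an executioner caspase, was the 1 call of the list with all libraries and rose in KO RA against KO NO (1.73 ± 0.36, adjusted p = 0.0201), where 5.48% of all genes were called.

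Since Bbc3 and Pmaip1 are also targets of ATF4 and CHOP, the transcription factors of the integrated stress response, 10 genes of that response were set beside them. In KO NO against WT NO 10 of 10 had a log2 fold change above 0, beside 7942 of the 16502 genes tested. Their median was 0.85, beside -0.02 for all genes tested. Of the 10, Ddr2 had 0 counts in WT NO and at most 1 in KO NO, under the floor, so its direction is not resolved. None of the list was called (1.14% of all genes) and 4 had an unadjusted p under 0.05 (12.2% of all genes). Vldlr, a lipoprotein receptor (1.31 ± 0.32, adjusted p = 0.0909), and Trib3, a pseudokinase (1.16 ± 0.40, adjusted p = 0.236), came first. Vldlr was the 1 gene of the list to pass without KO RA replicate 3 (adjusted p = 0.00911), where 8.77% of all genes did. Ddit3, which codes for CHOP, was at 4.89, 7.64 and 8.93 CPM in WT NO and 17.8, 10.6 and 12.5 in KO NO, without overlap (0.93 ± 0.48, adjusted p = 0.488). Between KO RA and WT RA the median was 0.0033 and 5 of 10 were above 0, beside 0.09 and 9172 of 16502 for all genes tested. In KO RA against KO NO 1 of the 10 was called lower and 1 higher (5.48% of all genes in either direction). Chac1, a glutathione-degrading enzyme, fell (-1.01 ± 0.24, adjusted p = 0.0338). Ddr2, a collagen receptor on the list, rose from at most 0.0293 CPM in KO NO to 6.63, 1.80 and 0.297 CPM in KO RA. In WT RA against WT NO 0 of the 10 were called (0.406% of all genes). There, 3 had an unadjusted p under 0.05, all higher (12.5% of all genes in either direction), with Ddr2 and Vldlr first. The RA response of the list differed by genotype by a median of -0.81, beside 0.12 for all genes tested. Of the 10, 0 were above 0, beside 9253 of the 16502 genes tested. None was called (0% of all genes), and 2 had an unadjusted p under 0.05 (8.62% of all genes). The part of the integrated stress response in the levels of Bbc3 and Pmaip1 was not tested.

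**Figure D5:**
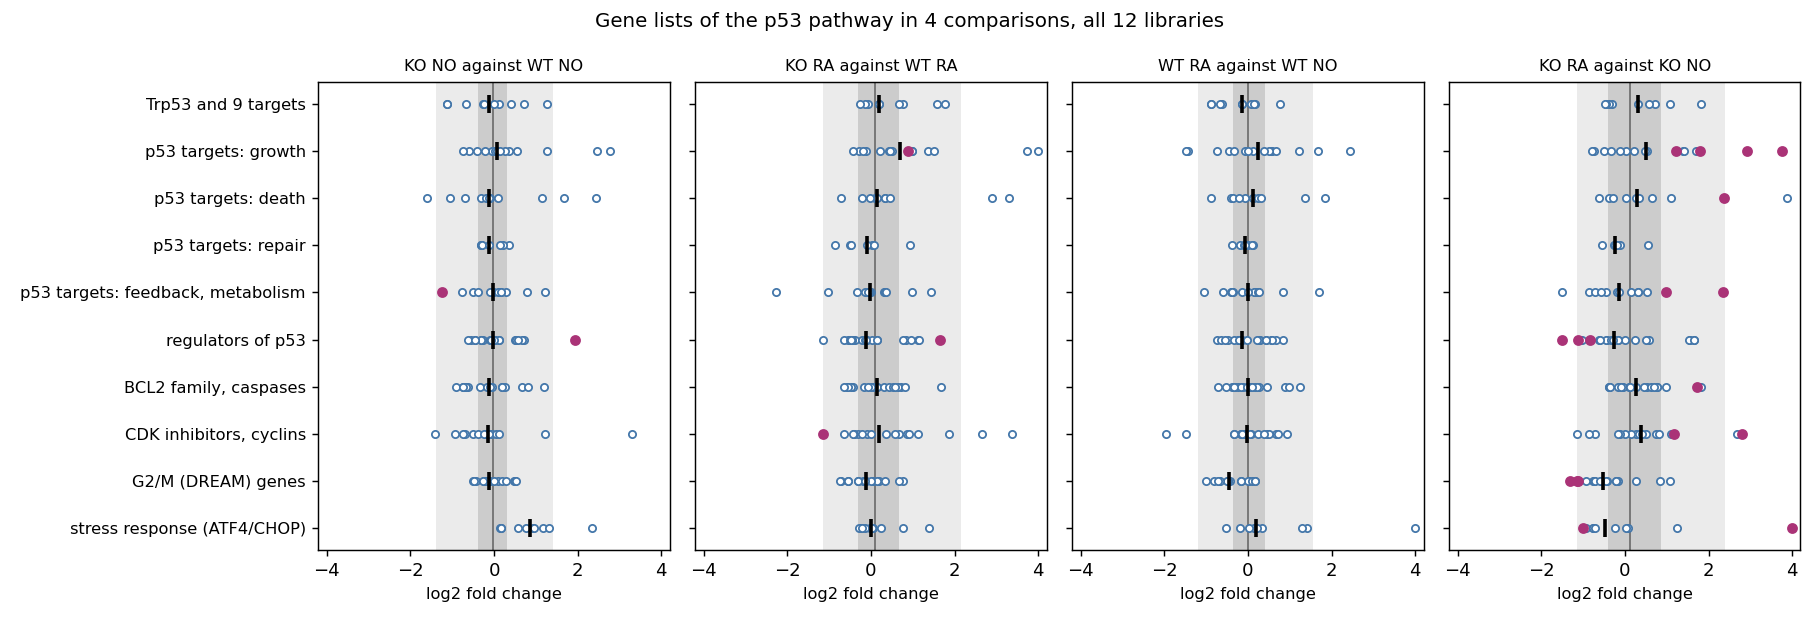
Log2 fold change (x axis, all 12 libraries) of the tested genes of 10 lists (y axis) in 4 comparisons; filled points were called, open points were not, and thick ticks are list medians. Grey bands run between the quartiles and between the outer percentiles (5 and 95) of all genes tested; points past the axis limits are drawn at its edge, and Trp53 is left out where KO RA was at the floor, so that the first median is then over 9 genes. The stress response list lies to the right in KO NO against WT NO, and most filled points are in KO RA against KO NO.

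Markers of other cell types moved with KO RA as well. The summed level of 7 mesenchymal markers was 41.5 to 61.1 CPM in WT NO, 37.6 to 43.6 in KO NO, 79.8 to 145 in WT RA and 157 to 281 in KO RA. That of 6 endothelial markers was at least 4.46 CPM in KO RA and at most 2.81 elsewhere. That of 6 astroglial markers was 28.6 to 166 in KO RA (at most 54.9 without replicate 3) and at most 19.1 elsewhere, with Aqp4 and S100b at the floor throughout. Single genes weighed heavily in these sums. The astroglial Fabp7 averaged 70.4 CPM in KO RA and 0.268 in KO NO, and the mesenchymal Acta2 128 and 3.09. In KO RA against KO NO, 7 of 7 mesenchymal but 1 of 3 tested astroglial markers had a log2 fold change above 0 with all libraries (9081 of 16502 genes tested). The 8 neuronal markers summed to 37.0 to 46.3 CPM in WT NO, 28.4 to 31.4 in KO NO, 55.2 to 61.3 in WT RA and 45.9 to 116 in KO RA, and the 6 haematopoietic markers stayed at or below 5.62. Their part in the values of Kitl, Plk2, Rprm, Bax and the other genes called in KO RA was not tested.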

How the data were processed

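Total RNA was extracted from pelleted NE-4C cells, from 3 independent passages, and poly(A) mRNA libraries were sequenced. The authors processed the reads with nf-core/rnaseq at its defaults (STAR and Salmon, GRCm39, Ensembl annotation) and deposited 1 table of estimated counts per gene that were scaled from TPM to each library's total. A count is thus corrected for length, is not a number of fragments and is not normalized between libraries. The strand setting is not given in the sources used here. Untreated columns were matched to samples by title.

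Counts were rounded and fitted in R 4.3.3 with edgeR 4.0.16: filterByExpr, TMM factors, 1 coefficient per group over all 12 libraries and robust quasi-likelihood tests, with calls at 0.05 after Benjamini-Hochberg adjustment over every gene tested. The median SE of a log2 fold change was 0.427 to 0.605 over the 5 comparisons, and 0.267 to 0.403 without KO RA replicate 3. Totals of 17370000 to 30738700 counts set the depth, and 3 counts per library was taken as the floor. The script was tested on simulated counts with a dispersion of 0.05 for every gene. The common dispersion of the data was 0.215, so that test does not measure recovery in these data. The authors ran DESeq2; here DESeq2 1.42.0 and limma 3.58.1 served as alternatives, with other filters, scaling, sample sets, a replicate term and each library left out. Response elements were searched with Python 3.11.15 on GRCm39 with GENCODE starts, and figures were drawn with matplotlib 3.10.9. Sequences are from GRCm39.

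The 10 genes and all gene lists were chosen with earlier results of these data known. The text names all 10 genes in every comparison and, from each other list, the called genes (up to 6 by p) or, with none called, the 2 of smallest p; markers are given as sums, and genes given only as called without KO RA replicate 3, as well as Trp73 and Ddit3 were named after their values were seen. For Trp53 and Cdkn1a the 5 genes of highest r are named (log2 CPM with a prior count of 2). p-values measure the spread between passages of 1 WT and 1 KO line.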

Additional observations from a re-analysis of the deposited data

How the results depend on the processing

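Of 973 values of a gene under an alternative, 901 kept direction and side of the threshold, 40 passed only under the alternative and 32 changed sign. No call could be lost, since 0 of the 10 genes were called as reported. The number of the 10 genes called, 0 in each comparison as reported, moved as follows. Between KO NO and WT NO it was 1 with DESeq2 on all libraries, 4 with DESeq2 and 1 with edgeR on the compared groups alone, and 4 with limma-voom quality weights. Between KO RA and WT RA it was 1 with DESeq2 on all libraries and 3 with limma-voom. Between WT RA and WT NO it was 3 with DESeq2 and 2 with edgeR on the compared groups, and 2 with limma-voom. Between KO RA and KO NO it was 2 with DESeq2 on all libraries and 4 with limma-voom. For the difference between the RA responses it was 0 under every alternative. Leaving out 1 library gave 0 to 4, 0 to 2, 0 to 2 and 0 to 4 in the first 4 comparisons. The highest counts came without KO RA replicate 3, and the only other count above 0 was 1, between KO RA and KO NO without KO RA replicate 2. Genes near response elements fell from 5 to 3 within 1000 bp and to 3 with at most 1 mismatch.

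Values that changed sign were uncalled as reported. For Phlda3 between KO NO and WT NO the log2 fold change became 0.012 (DESeq2, compared groups), 0.0089 (no filter), 0.0097 (edgeR, compared groups), 0.26 (limma-voom) and 0.080 (replicate block). With limma-voom it became 0.0098 for Sesn1 between KO NO and WT NO, 0.14 for Mdm2 and 0.13 for Zmat3 between KO RA and WT RA, -0.044 for Bbc3 between WT RA and WT NO, and 0.078 for Mdm2 and 0.14 for Pmaip1 in the difference between the RA responses. With 1 library left out, values between KO NO and WT NO ran from -0.46 to 0.0088 for Cdkn1a, -0.19 to 0.29 for Phlda3 and -0.50 to 0.14 for Sesn1. Between KO RA and WT RA they ran from -0.13 to 0.53 for Cdkn1a, -0.18 to 0.12 for Mdm2, -0.36 to 0.022 for Bax and -0.51 to 0.11 for Zmat3. Between WT RA and WT NO they ran from -0.43 to 0.14 for Cdkn1a, -0.044 to 0.22 for Bbc3 and -0.073 to 0.52 for Sesn1, and between KO RA and KO NO from -0.019 to 0.64 for Cdkn1a. For the difference between the RA responses they ran from -0.30 to 0.00070 for Mdm2 and -0.19 to 0.24 for Pmaip1. The causes were not tested.

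Replicate numbers did not pair the libraries: over 18 same-numbered pairs r ran from -0.167 to 0.068, and 0 of 12 libraries correlated best with their own number. With the replicate block 0 of the 10 genes were called in each comparison. Over all genes, as reported, 188, 205, 67, 904 and 0 were called; leaving out 1 library gave 40 to 1520, 19 to 1707, 0 to 1868, 194 to 2776 and 0 to 232, and the other alternatives 43 to 3566, 16 to 2987, 10 to 3562, 196 to 4531 and 0 to 985. With DESeq2's size factors the all-gene median of log2 fold changes moved from 0.09 to 0.15, 0.11 to 0.19 and 0.12 to 0.19 in the comparisons with KO RA. Levels in KO RA replicate 3 depended on its TMM factor. Without TMM factors Bbc3, Pmaip1 and Mdm2 in it were at 4.21, 9.70 and 10.6 CPM, against 10.7, 24.7 and 27.0 with them. Depth limits Trp53, whose KO RA libraries are at or under the floor of 3 counts, and the median SE over all genes is larger with KO RA replicate 3 than without it.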
